A study of Homo sapiens with 12 samples.

Results

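The subject is 10 keratin genes, taken by gene identifier from the count tables of both experiments, which list 57820 genes each, and all 10 had a row in both. They are the simple epithelial keratins *KRT7*, *KRT8*, *KRT18* and *KRT19*, the stress-type keratins *KRT6A*, *KRT16* and *KRT17*, and *KRT20*, *KRT23* and *KRT80*. Keratins are the intermediate filament proteins of epithelial cells. A filament is built from pairs of 1 acidic (type I) and 1 basic (type II) chain, so every epithelium makes at least one of each. *KRT8* (type II) with *KRT18* and *KRT19* (type I) is the basic set of single-layered epithelia, and *KRT7* is a type II keratin of ducts, the pancreatic duct included. *KRT6A* (type II) and *KRT16* and *KRT17* (type I) appear in skin after wounding and in hyperproliferation, and are read in pancreatic tumours as squamous or basal-like markers.

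Total RNA depleted of rRNA was sequenced from AsPC-1, an established line of human pancreatic ductal adenocarcinoma cells, in 4 groups of 3 libraries. SiBACH1 cells were transfected with siRNA (small interfering RNA) against *BACH1*, which encodes a repressor of antioxidant and heme-breakdown genes, and were harvested after 24 h. SiCont cells are the control of that experiment, also harvested after 24 h. SgBACH1 cells received lentiCRISPR v2, a viral vector for Cas9 and a guide, here one directed at *BACH1*. SgCont cells are their control, and cells of both groups were selected with 10 µg/ml puromycin. Not given in the sources used here are whether sgBACH1 and sgCont are single clones or pools, and the sequences of the siRNA and of the control guide. The study asked which genes BACH1 controls in pancreatic cancer cells and tied it to epithelial-mesenchymal transition, the change in which cells give up epithelial features, which makes keratins part of its question.

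The libraries held 13099706 to 21478886 counts. The labels do not say whether replicates came from separate cultures, so p-values reflect only how these libraries varied, and that variation may be technical. Levels are given as CPM, a gene's counts per 1000000 counts of its library after TMM scaling of all 12 libraries. *BACH1* had 24.7, 27.5 and 24.6 CPM in siBACH1 and 195.8, 289.1 and 195.0 in siCont. It averaged 201.9 ± 16.8 CPM in sgBACH1 and 281.4 ± 12.5 in sgCont (SD, n = 3 each). The groups of each experiment did not overlap (two-sided exact permutation p = 0.1, the lowest value possible with 3 against 3 libraries). Replicate 2 of siCont stood apart, since its counts differed from those of the other 2 siCont libraries with a chi-square of 30.6 and 36.0 per degree of freedom, against 8.92 between those others. At least 9 of the 10 epithelial markers outside the keratins had counts in each group. Their summed level was 5247 to 5475 CPM in siBACH1, 3723 to 4959 in siCont, 3376 to 3558 in sgBACH1 and 1609 to 1659 in sgCont. This and the other marker sums are without TMM scaling. *CEACAM6* alone averaged 2790, 2329, 1628 and 284 CPM in the same groups, so much of the difference between the sums lay in this 1 gene. The 8 blood and endothelial markers measured summed to at most 6.26 CPM in any library. The 7 fibroblast markers summed to 338.4 to 361.2 CPM in siBACH1, 293.8 to 302.7 in siCont, 45.7 to 51.5 in sgBACH1 and 113.3 to 139.9 in sgCont, with *PDGFRA* at 0 in siCont. *LUM*, the small proteoglycan lumican, made up nearly all of it, with means of 348.1, 296.3, 49.1 and 123.9 CPM in the same groups. The part of these differences in the keratin results was not tested.

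AsPC-1 cells of all 4 groups were simple epithelial by their keratins. Levels of different genes are set side by side as CPM per kilobase of each gene's principal transcript. *KRT8* averaged 3200.0 CPM per kilobase in siBACH1, 2831 in siCont, 3278 in sgBACH1 and 5171 in sgCont. *KRT18* and *KRT19* followed at 1603 to 3215 and 1441 to 2135 CPM per kilobase. *KRT80*, a type II keratin, averaged 3.54 CPM per kilobase in siBACH1, 5.08 in siCont, 7.29 in sgBACH1 and 74.5 in sgCont. Every other member averaged below 10 CPM per kilobase in each group, *KRT7* among them at 2.16 in siBACH1, 6.0 in siCont, 1.79 in sgBACH1 and 6.34 in sgCont. The duct keratin *KRT7* was thus a minor transcript here, far below its type II relative *KRT8*. Together the 10 genes took 1.18% ± 0.0213 of all counts in siBACH1, 1.13% ± 0.119 in siCont, 1.23% ± 0.0888 in sgBACH1 and 1.90% ± 0.0698 in sgCont (SD, n = 3 each).

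Of the stress-type keratins only *KRT16* was measurable. *KRT6A* had 1 count, in siBACH1 replicate 1, and none in the other 11 libraries. *KRT17* had no count in siBACH1, 1 in each siCont library, 6 in sgBACH1 replicate 3 and none in the other sgBACH1 libraries or in sgCont. A count of 0 over a whole group allows up to 0.0518 CPM in siBACH1, 0.0684 in siCont, 0.0563 in sgBACH1 and 0.0598 in sgCont (3 counts of the group's total, covering counting error only). Both genes fell below the filter on low counts in every comparison, so the stress-type side below is *KRT16* alone. *KRT20*, a type I keratin of intestinal and gastric surface epithelium, was close to that limit in the knockout experiment, with 3 counts over the sgBACH1 libraries and 12 over sgCont, 11 of those in sgCont replicate 2.

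How far a count belongs to 1 keratin depends on how much sequence it shares with its relatives, and not given in the sources used here is how reads that match several genes were handled. Of all stretches of 50 bases in the principal transcript, 32.7% in *KRT8* and 31.8% in *KRT18* also occur, letter for letter, in transcripts of other genes, mostly keratin pseudogenes. The share is 39.1% in *KRT6A*, most of it with *KRT6C*, 22.0% in *KRT16*, 16.0% in *KRT17*, 1.79% in *KRT19*, 0.997% in *KRT7* and 0.42% in *KRT80*. *KRT20* and *KRT23* share none. Exons of *KRT7* overlap *KRT7-AS* and *KRT87P* on the opposite strand, those of *KRT8* and *KRT18* overlap each other, and those of *KRT23* overlap AC004231.1. With no statement on whether counting used strand, these counts are uncertain to that extent. The coding sequences of *KRT16* and *KRT17* are 80.9% identical over 1283 aligned bases, and the pair below shows the part where they are most alike, 80 bases from position 1204 of the *KRT16* coding sequence and 1105 of *KRT17*, as an example of a stretch that a short read from either gene could match. Capitals mark the bases at which the pair differs, and the letters are from GENCODE 29 transcripts.
KRT16: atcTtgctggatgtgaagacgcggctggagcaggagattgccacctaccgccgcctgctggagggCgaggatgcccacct
KRT17: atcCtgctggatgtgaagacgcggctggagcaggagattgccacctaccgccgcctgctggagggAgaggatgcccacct

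Counts were assigned to the pseudogenes, and their summed level followed that of the parent genes. The 51 *KRT8* pseudogenes summed to 143.3 ± 12.5 CPM in siBACH1, 127.7 ± 21.9 in siCont, 171.7 ± 28.5 in sgBACH1 and 245.8 ± 12.1 in sgCont (SD, n = 3 each). That is 1.88% to 2.74% of the *KRT8* level over the 12 libraries. The 67 *KRT18* pseudogenes summed to 71.2 ± 8.13 CPM in siBACH1, 60.2 ± 7.11 in siCont, 73.1 ± 6.31 in sgBACH1 and 122.7 ± 4.20 in sgCont (SD, n = 3 each), or 2.14% to 2.74% of *KRT18*. Of 31 *KRT8* pseudogenes tested in the knockout comparison 25 had a log2 fold change below 0, with a median of -0.43 beside -0.66 for *KRT8* itself, and of 36 *KRT18* pseudogenes 33 did, with a median of -0.72 beside -0.74. The median over all genes tested was 0.01. Few single pseudogenes were called there, 3 of *KRT8* and 5 of *KRT18*, all as fallen, where 12.3% of all genes tested fell. In the siRNA comparison none was called. How many of the reads assigned to pseudogenes came from the parent genes was not tested.

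**Figure D1:**
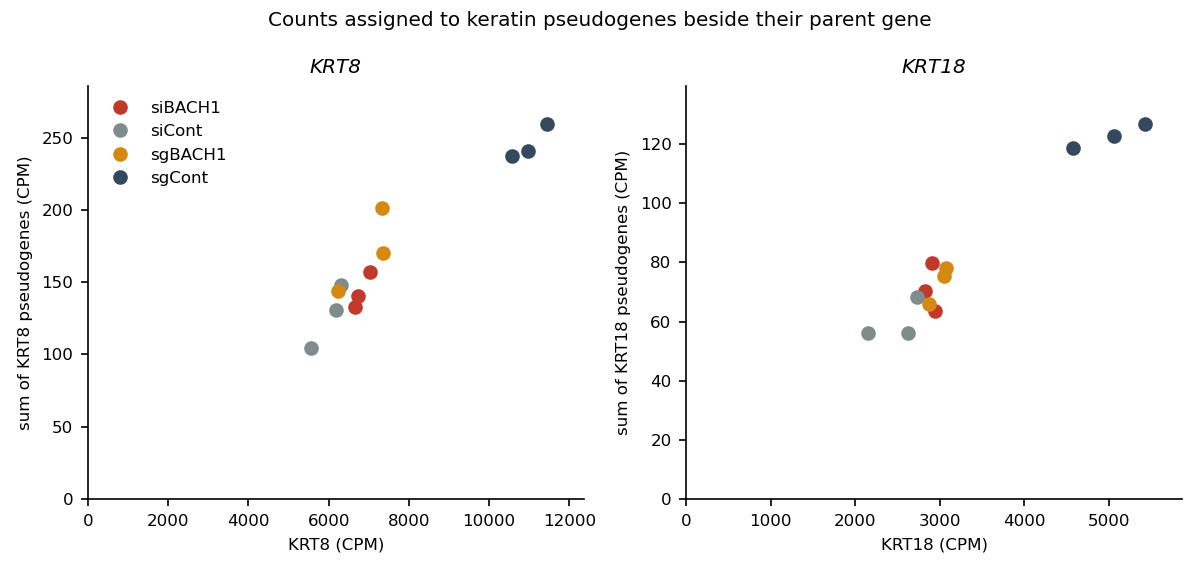
Summed level of the pseudogenes of KRT8 (left) and KRT18 (right) in CPM against the level of the parent gene in CPM, 1 point per library. The 3 sgCont libraries lie apart at the upper right in both panels, and the pseudogenes stay between 1.88% and 2.74% of their parent throughout.

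The siRNA comparison asks what the keratins did 24 h after *BACH1* was lowered. Of the 10 members 8 passed the filter on low counts, 4 fell, none rose and 4 were not called by edgeR at an adjusted p below 0.05. Of the 14591 genes tested, 13.0% fell and 10.9% rose. *KRT16*, *KRT23*, *KRT7* and *KRT19* were the members that fell, in order of fold change. Since these are bulk RNA samples, fewer cells carrying a transcript and less of it per cell cannot be told apart.

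*KRT8* (chromosome 12, 52897187 to 52949954 in GRCh38) stood at 7032, 6652 and 6726 CPM in siBACH1 and at 6195, 5554 and 6309 in siCont. *KRT18* (chromosome 12, 52948871 to 52952901), its usual type I partner, stood at 2912, 2941 and 2825 CPM in siBACH1 and at 2625, 2157 and 2729 in siCont. Every siBACH1 library was above every siCont library in both genes (in the siRNA comparison the groups did not overlap in 42.6% of all genes tested), but the differences were small, with log2 fold changes of 0.17 ± 0.07 for *KRT8* and 0.20 ± 0.09 for *KRT18* (SE), and neither was called (edgeR adjusted p = 0.103 and 0.129). Without the filter on low counts edgeR called both, at adjusted p = 0.0473 and 0.0311. *KRT19* (chromosome 17, 41523617 to 41528308), the shortest keratin and one of pancreatic ducts, moved the other way. It stood at 2034, 2007 and 1966 CPM in siBACH1 and at 2816, 2438 and 2687 in siCont. No siBACH1 library reached the siCont range, and *KRT19* fell by 0.41 ± 0.07 on the log2 scale (SE; edgeR adjusted p = 0.00305). *KRT7* (chromosome 12, 52232520 to 52252186) had 4.35, 4.64 and 2.38 CPM in siBACH1, from 52 to 93 counts a library, against 8.95, 14.9 and 7.71 CPM in siCont. The groups did not overlap and siCont replicate 2 was the highest library. The fall was 1.48 ± 0.32 on the log2 scale, or 2.79-fold (SE; edgeR adjusted p = 0.00995), and 1.15 without siCont replicate 2.

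*KRT23* (chromosome 17, 40922696 to 40937634) is a type I keratin first described as induced by histone deacetylase inhibitors in pancreatic cancer cells. It stood at 1.57, 1.45 and 1.83 CPM in siBACH1 and at 7.13, 4.0 and 5.67 in siCont. The siBACH1 libraries lay close together and all below siCont, a fall of 1.79 ± 0.28 on the log2 scale, or 3.46-fold (SE; edgeR adjusted p = 0.00198). *KRT80* (chromosome 12, 52168996 to 52192000) had 15.7, 10.5 and 14.7 CPM in siBACH1 and 12.2, 28.7 and 17.9 in siCont, which overlapped. Its log2 fold change of -0.53 ± 0.29 was not called (SE; edgeR adjusted p = 0.219), though without the filter it was, at 0.0216, and it came to -0.16 without siCont replicate 2. *KRT20* (chromosome 17, 40875941 to 40885227) had 1.63, 1.05 and 0.274 CPM in siBACH1 and 1.75, 0.785 and 1.81 in siCont. These overlapped as well, and the log2 fold change of -0.61 ± 0.59 was not called (SE; edgeR adjusted p = 0.501).

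*KRT16* (chromosome 17, 41609778 to 41615899), the stress-type member that was measurable, had the largest fold change of the 8 members tested. It stood at 0.786, 0.549 and 0.640 CPM in siBACH1, from 13, 11 and 14 counts, and at 3.43, 5.18 and 4.09 CPM in siCont, from 49, 66 and 70 counts. The highest siBACH1 library was far below the lowest siCont library. *KRT16* fell by 2.68 ± 0.32 on the log2 scale, or 6.42-fold (SE; edgeR adjusted p = 0.000404), and by 2.52 to 2.82 when any 1 library was left out. The 6 *KRT16* pseudogenes, *KRT16P3* with the most shared sequence among them, held 1 count in all in siBACH1, 1 in siCont, 3 in sgBACH1 and 4 in sgCont. Whether reads of *KRT16* and its relatives were exchanged was not tested.

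**Figure D2:**
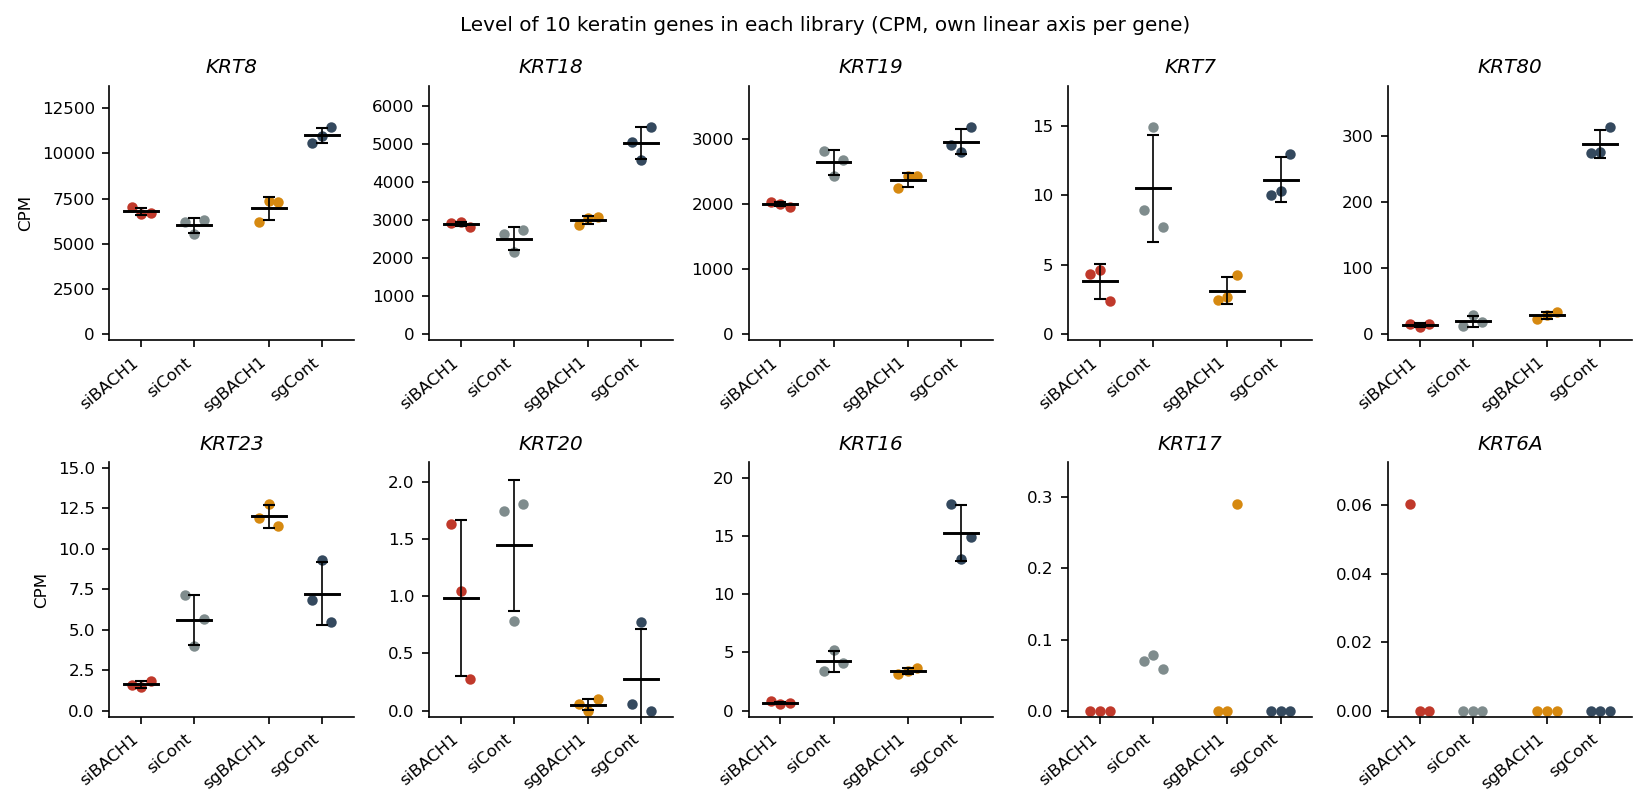
CPM of the 10 keratin genes in each of the 12 libraries, on a linear axis of its own for every gene, with siBACH1 left of siCont and sgBACH1 left of sgCont. Bars and whiskers are the mean and SD of 3 libraries, left out for KRT17 and KRT6A, which have at most 6 counts in a library. In KRT8, KRT18, KRT80 and KRT16 every sgCont library lies above all others, and KRT23 is the gene that is lowest in siBACH1 and highest in sgBACH1.

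The knockout comparison asks the same of cells selected for a *BACH1* guide. Of the 10 members 7 passed the filter, 6 fell and 1 rose, where 12.3% of the 14469 genes tested fell and 11.3% rose. All 4 simple epithelial keratins fell, as did *KRT16* and *KRT80*, and *KRT23* rose. The libraries of sgBACH1 and sgCont did not overlap in any of the 7, as was so for 36.5% of all genes tested.

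*KRT8* had 6228, 7343 and 7337 CPM in sgBACH1 and 10570.0, 10965 and 11443 in sgCont, and fell by 0.66 ± 0.06 on the log2 scale, or 1.58-fold (SE; edgeR adjusted p = 1.41e-08). *KRT18* had 2871, 3046 and 3077 CPM in sgBACH1 and 5058, 4576 and 5432 in sgCont, and fell by 0.74 ± 0.06, or 1.67-fold (SE; edgeR adjusted p = 2.22e-09). Both partners of the main filament pair were thus lower by similar factors. *KRT19* had 2246, 2432 and 2440 CPM in sgBACH1 and 2914, 2802 and 3187 in sgCont. Its fall was less than that of *KRT18* in size, 0.32 ± 0.06 on the log2 scale (SE; edgeR adjusted p = 0.000379). *KRT7* had 2.44, 2.69 and 4.27 CPM in sgBACH1 and 10.1, 10.3 and 13.0 in sgCont. It fell by 1.81 ± 0.29, or 3.51-fold (SE; edgeR adjusted p = 4.37e-05), with sgBACH1 replicate 3 the highest of its group.

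*KRT80* changed more than any other member. It had 22.4, 28.8 and 33.3 CPM in sgBACH1 and 273.6, 276.2 and 312.7 in sgCont, a fall of 3.35 ± 0.11 on the log2 scale, or 10.2-fold (SE; edgeR adjusted p = 8.67e-17). *KRT16* had 3.17, 3.38 and 3.64 CPM in sgBACH1 and 17.8, 13.0 and 15.0 in sgCont, and fell by 2.16 ± 0.25, or 4.47-fold (SE; edgeR adjusted p = 3.24e-07). The libraries of each group were close together in both genes and the groups far apart. *KRT23* was the exception, with 11.9, 12.8 and 11.4 CPM in sgBACH1 and 6.86, 9.33 and 5.48 in sgCont. It rose by 0.74 ± 0.24 on the log2 scale (SE; edgeR adjusted p = 0.0282). This call was lost when sgBACH1 replicate 1, 2 or 3 or sgCont replicate 1 or 3 was left out, with edgeR adjusted p from 0.0622 to 0.113, and it was kept, at 0.00572, without sgCont replicate 2.

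**Figure D3:**
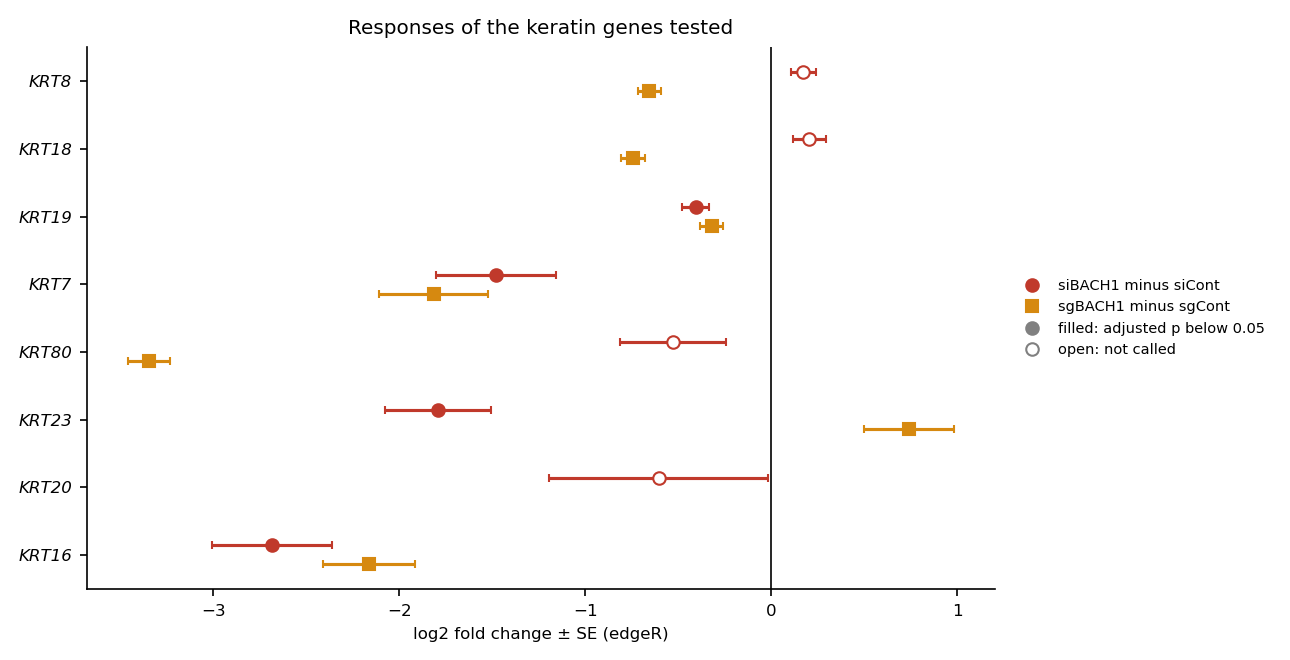
Log2 fold change ± SE (edgeR) of the members tested, circles for siBACH1 minus siCont and squares for sgBACH1 minus sgCont, filled where the adjusted p was below 0.05. KRT16, KRT7 and KRT19 lie left of 0 in both comparisons, KRT8, KRT18 and KRT80 are called in the knockout comparison, and KRT23 lies on opposite sides of 0.

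Whether a keratin answered the knockout otherwise than the siRNA was tested as the difference of the log2 fold changes, knockout minus siRNA, in 1 fit of all 12 libraries. Of the 8 members tested, 3 differed downwards and 1 upwards, and 4 were not called. Over the 15644 genes tested the difference was called downwards in 10.6% and upwards in 13.0%. *KRT80* differed by -2.83 ± 0.31, *KRT18* by -0.95 ± 0.12 and *KRT8* by -0.83 ± 0.10 (SE; edgeR adjusted p = 4.49e-06, 1.24e-05 and 9.72e-06). *KRT23* differed by 2.53 ± 0.37 (SE; edgeR adjusted p = 8.61e-05). For *KRT7* the difference was -0.34 ± 0.43, for *KRT16* 0.51 ± 0.37, for *KRT19* 0.08 ± 0.10 and for *KRT20* -1.50 ± 1.53 (SE; edgeR adjusted p from 0.357 to 0.64). A missed call does not show equal responses, and the interval of *KRT20* in particular is wide.

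Set against each other, the simple epithelial and the stress-type keratins were far apart in level in every group. *KRT7*, *KRT8*, *KRT18* and *KRT19* summed to 6495 ± 129 CPM per kilobase in siBACH1, 6344 ± 510 in siCont, 6906 ± 452 in sgBACH1 and 10527 ± 558 in sgCont (SD, n = 3 each). *KRT6A*, *KRT16* and *KRT17* summed to 0.409 ± 0.0870 CPM per kilobase in siBACH1, 2.62 ± 0.542 in siCont, 2.12 ± 0.238 in sgBACH1 and 9.27 ± 1.46 in sgCont (SD, n = 3 each). The simple sum overlapped between siBACH1 and siCont and did not overlap between sgBACH1 and sgCont, while the stress-type sum did not overlap in either experiment. The ratio of simple to stress-type sums was 13160, 19350 and 16399 in the siBACH1 libraries and 3115, 1800.0 and 2637 in siCont. It was 3313, 3477 and 3005 in sgBACH1 and 954, 1278 and 1227 in sgCont. It was thus higher where *BACH1* had been targeted in both experiments, with no overlap, and since *KRT8*, *KRT18* and *KRT19* set the upper sum and *KRT16* the lower one, this repeats the values of those genes and is no separate result.

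Within the simple keratins the makeup shifted. *KRT8* made up 49.3% ± 0.726 of the simple sum in siBACH1, 44.7% ± 0.704 in siCont, 47.4% ± 1.33 in sgBACH1 and 49.2% ± 1.61 in sgCont (SD, n = 3 each). *KRT18* over *KRT19*, both type I partners of *KRT8*, was 1.27, 1.30 and 1.28 per kilobase in siBACH1 and 0.830, 0.787 and 0.904 in siCont. The same ratio was 1.14, 1.11 and 1.12 in sgBACH1 and 1.54, 1.45 and 1.52 in sgCont. More *KRT18* than *KRT19* was therefore counted per kilobase in 3 of the groups and less in siCont, and the ratio was higher in siBACH1 than in siCont but lower in sgBACH1 than in sgCont, with no overlap in either. Type I over type II, summed over all members per kilobase, was 1.03 ± 0.0300 in siBACH1, 1.23 ± 0.0380 in siCont, 1.11 ± 0.0603 in sgBACH1 and 1.02 ± 0.0641 in sgCont (SD, n = 3 each). The highest library, in siCont, had 1.27. This ratio was lower in siBACH1 than in siCont and higher in sgBACH1 than in sgCont, with no overlap in either experiment. *KRT8* over *KRT18* in CPM lay between 2.09 and 2.58 in the 12 libraries, and its groups overlapped.

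**Figure D4:**
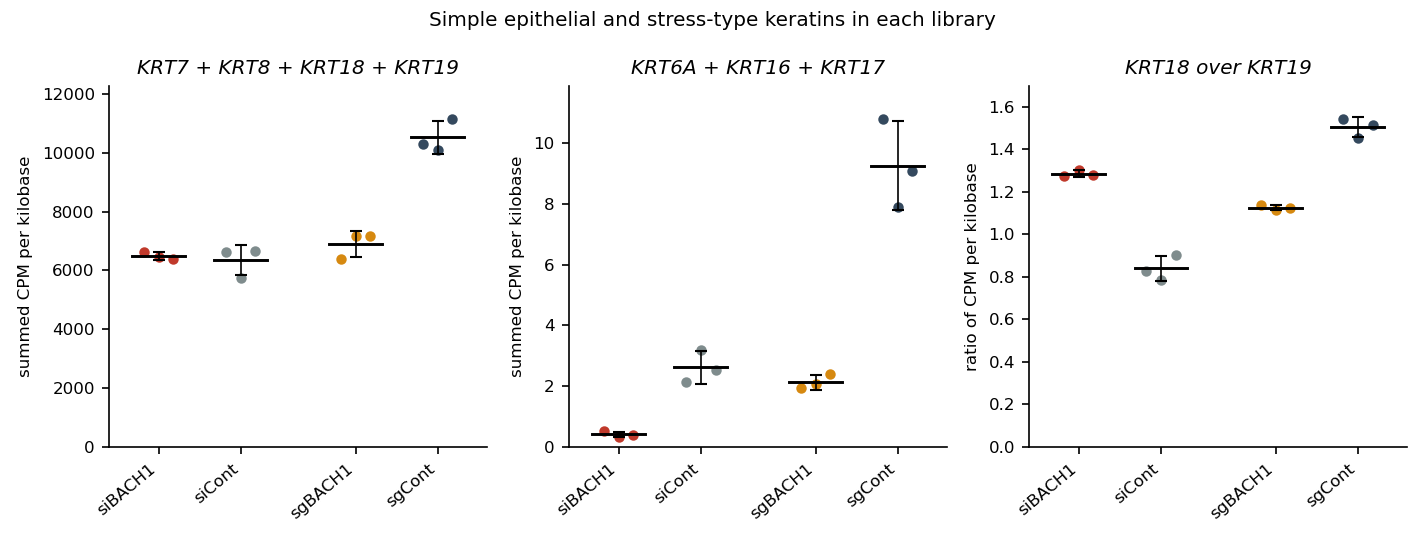
Summed CPM per kilobase of the simple epithelial keratins (left) and the stress-type keratins (middle), and KRT18 over KRT19 per kilobase (right), in each library with the mean and SD of 3. The simple sum is highest in sgCont at 10527, the stress-type sum is lowest in siBACH1 at 0.409, and the KRT18 to KRT19 ratio is below 1 in siCont and above 1 in the other groups.

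Set in order of level, sgCont lay above all other groups for several members. In *KRT8*, *KRT18*, *KRT80* and *KRT16* every sgCont library was above every other library, as was so for 8.73% of the 15644 genes of the 12-library fit. The highest library outside sgCont had 7343 CPM of *KRT8*, a sgBACH1 library, and the lowest sgCont library 10570.0, and for *KRT80* these were 33.3 CPM, again in sgBACH1, and 273.6 CPM in sgCont. In *KRT8* and *KRT18* the means ran from sgCont through sgBACH1 and siBACH1 to siCont, and the libraries of sgBACH1 and siBACH1 overlapped. For *KRT80* sgBACH1 overlapped siCont, and siCont overlapped siBACH1. *KRT16* had sgBACH1 overlapping siCont, with sgCont above and siBACH1 below both, a span of 23.2-fold between the highest and lowest group means. *KRT7* and *KRT19* were highest in both controls, which overlapped each other. The low *KRT7* groups, siBACH1 and sgBACH1, overlapped too, whereas *KRT19* was lower in siBACH1 than in sgBACH1, which overlapped siCont. *KRT23* spanned 7.44-fold from siBACH1 at the bottom to sgBACH1 at the top, with both controls between and overlapping. The experiments differed in handling (transfection against infection and selection), so levels across them carry no test, and handling and sample cannot be told apart.

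Keratin genes lie in 2 clusters, type II with *KRT18* on chromosome 12 and the other type I genes on chromosome 17, and each member was set beside the 40 tested genes nearest to it, 20 on each side, keratins left out. Around *KRT8* and *KRT18* the median log2 fold change of these neighbours was -0.04 in the siRNA comparison, with 4 called up and 7 down, and -0.27 in the knockout comparison, with 2 called up and 16 down. In the knockout *KRT8* minus that median was -0.39 and *KRT18* minus it -0.47, and 4 of the 40 neighbours were lower than either. *KRT80* and *KRT7* differed from the median of -0.25 of their own neighbours by -3.10 and -1.57. On chromosome 17 the siRNA median was 0.10 around *KRT16* and *KRT19*, with 8 called up and 2 down. It was 0.09 around *KRT23*, with 8 up and 3 down. Of all genes tested 10.9% rose and 13.0% fell in the siRNA comparison, and 11.3% and 12.3% in the knockout. Around *KRT16*, *KRT19* and *KRT23* the knockout median was -0.14, with 2 called up and 4 down. *KRT19* differed from it by -0.19 with 11 neighbours lower, *KRT16* was below all 40, and *KRT23* was above 39 of them. The part of the lower surroundings on chromosome 12 in the falls of *KRT8* and *KRT18* was not tested.

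**Figure D5:**
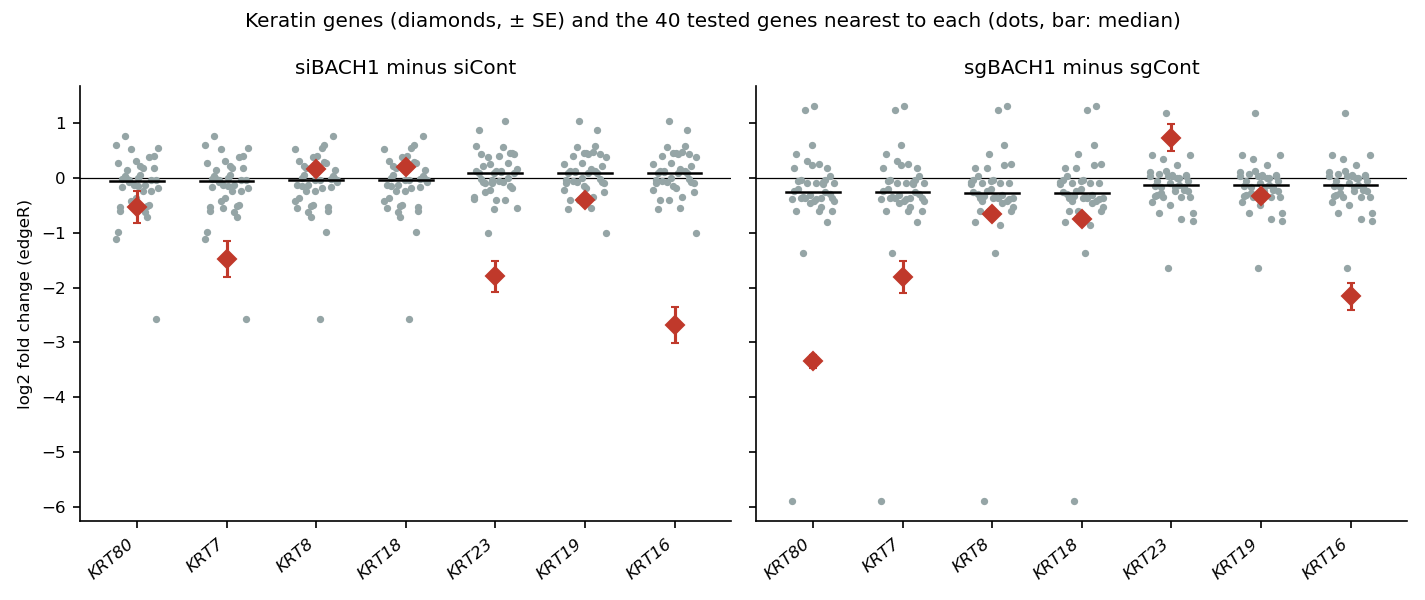
Log2 fold change of 7 members (diamonds, ± SE) and of the 40 tested non-keratin genes nearest to each (dots, bar for their median), siBACH1 minus siCont on the left and sgBACH1 minus sgCont on the right. The median bars of the chromosome 12 members lie near 0 on the left and near -0.25 on the right. KRT7 and KRT16 lie at or near the lower end of their neighbours in both panels. KRT80 does so on the right only, where 1 neighbour was lower, against 7 on the left. KRT23 lies below all its neighbours on the left and above 39 of them on the right.

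The rest of the keratin family was nearly silent. Of 44 other keratin genes 2 passed the filter, and neither was called in any comparison. *KRT10*, a type I keratin of differentiating skin, averaged 16.7 ± 0.616 CPM in siBACH1, 20.4 ± 0.661 in siCont, 18.4 ± 2.16 in sgBACH1 and 17.9 ± 4.65 in sgCont (SD, n = 3 each). *KRT15*, a type I basal keratin, averaged 20.3 ± 0.702 CPM in siBACH1, 21.9 ± 2.69 in siCont, 13.0 ± 2.15 in sgBACH1 and 17.5 ± 1.52 in sgCont (SD, n = 3 each). Of the remaining genes 3 had over 20 counts in any group, each of them in sgCont. Over the libraries of siBACH1, siCont, sgBACH1 and sgCont the skin keratin *KRT5* had 2, 1, 7 and 24 counts and the hair keratins *KRT81* and *KRT83* had 0, 0, 3 and 43, and 0, 2, 6 and 24.

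Transcripts of genes whose proteins anchor keratin filaments changed in both directions. Of 16 tested plakins, desmosomal, hemidesmosomal and other genes listed as keratin anchors 5 rose and 3 fell in siBACH1. In sgBACH1 5 rose and 3 fell as well. The median log2 fold changes were 0.14 and 0.06, beside medians of 0.00 and 0.01 over all genes tested. The counts of this and the following lists stand against 10.9% rising and 13.0% falling among all genes tested in siBACH1 and 11.3% and 12.3% in sgBACH1, and no list was tested as a set. In siBACH1 the desmosomal cadherin *DSG2* fell by 1.18 ± 0.08 and the hemidesmosomal integrin *ITGB4* by 0.61 ± 0.15, while periplakin (*PPL*) rose by 0.94 ± 0.20 and plakophilin 2 (*PKP2*) by 0.87 ± 0.14 (SE; edgeR adjusted p from 1.09e-05 to 0.0170). In sgBACH1 *DSG2* rose by 0.68 ± 0.06, *DSC2* by 0.67 ± 0.10 and desmoplakin (*DSP*), which ties filaments to desmosomes, by 0.56 ± 0.07, and *PPL* fell by 0.55 ± 0.15 (SE; edgeR adjusted p from 1.20e-08 to 0.00819). *DSG2* and *PPL* thus moved in opposite directions, with differences of 1.86 ± 0.09 and -1.50 ± 0.26 between the responses (SE; edgeR adjusted p = 6.51e-10 and 0.000376). The other intermediate filament genes gave 0 rises and 3 falls among 7 tested in each experiment. *BFSP1*, the lens filament protein filensin, had the largest change among them and fell in both experiments, with log2 fold changes of -1.16 ± 0.34 in siBACH1 and -1.38 ± 0.48 in sgBACH1 (SE; edgeR adjusted p = 0.0346 and 0.0371), at group means below 5 CPM. The lamin gene *LMNA* fell by 0.46 ± 0.10 in siBACH1 and 0.43 ± 0.07 in sgBACH1 (SE; edgeR adjusted p = 0.00944 and 6.58e-05). Vimentin (*VIM*), the filament of mesenchymal cells, averaged 1290.4 ± 30.9 CPM in siBACH1 and 2002 ± 329 in siCont (SD, n = 3 each), and fell by 0.64 ± 0.11 (SE; edgeR adjusted p = 0.00296). In the knockout comparison the log2 fold change of *VIM* was -0.09 ± 0.06 and not called, and the responses differed by 0.54 ± 0.12 (SE; edgeR adjusted p = 0.288 and 0.00345).

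Few genes of the squamous programme, which *KRT6A*, *KRT16* and *KRT17* usually accompany, were measurable. Of the cornified envelope and squamous list, 8 of 22 genes were tested in siBACH1. Among these 1 rose and 2 fell (median log2 fold change -0.12), beside 10.9% and 13.0% of all genes tested. In sgBACH1 7 were tested, and 3 rose and none fell (median 0.45), beside 11.3% and 12.3%. Risers in sgBACH1 were the desmosomal cadherin *DSG3* by 3.16 ± 0.19 and the skin proteases *KLK6* by 3.04 ± 0.12 and *KLK7* by 3.27 ± 0.36 (SE; edgeR adjusted p from 8.57e-16 to 1.80e-07). *DSG3* had 39.2 ± 2.27 CPM in sgBACH1 and 4.41 ± 0.961 in sgCont, and 109.3 ± 4.43 in siBACH1 and 77.5 ± 11.0 in siCont (SD, n = 3 each). Its level in sgBACH1 was thus below that of both siRNA groups. *DSG3* was also the riser of this list in siBACH1, by 0.49 ± 0.11 (SE; edgeR adjusted p = 0.0105). Of the basal-like pancreatic cancer genes without keratins, 1 rose and 6 fell among 10 tested in siBACH1 (median -0.87), and 3 rose and 2 fell among 11 in sgBACH1 (median 0.35). *FAM83A*, a list member linked to EGFR signalling, fell in both, by 1.90 ± 0.09 in siBACH1 and 2.26 ± 0.08 in sgBACH1 (SE; edgeR adjusted p = 2.87e-06 and 2.22e-16). The dehydrogenase *DHRS9* fell by 1.04 ± 0.08 in siBACH1 and rose by 1.71 ± 0.16 in sgBACH1 (SE; edgeR adjusted p = 4.14e-05 and 1.94e-08).

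Of 9 tested epithelial markers outside the keratins 5 rose in siBACH1 and 8 in sgBACH1, and none fell, with median log2 fold changes of 0.48 and 0.54. E-cadherin (*CDH1*) rose by 0.84 ± 0.07 in siBACH1 and by 0.57 ± 0.09 in sgBACH1 (SE; edgeR adjusted p = 7.18e-05 and 2.13e-05). The adhesion molecule *CEACAM6* rose by 2.52 ± 0.07 in sgBACH1 (SE; edgeR adjusted p = 3.05e-18). Of the classical pancreatic cancer genes 4 rose and 2 fell among 19 tested in siBACH1 (median 0.04), and 9 rose and 1 fell among 17 in sgBACH1 (median 1.06), among them the trefoil peptides *TFF1* with 11.0 ± 1.65 CPM in sgBACH1 and 0.159 ± 0.275 in sgCont and *TFF3* with 66.4 ± 6.09 CPM in sgBACH1 and 1.76 ± 0.938 in sgCont (SD, n = 3 each). Among transcription factors known to act on epithelial genes, 6 rose and 3 fell of 17 in siBACH1 (median 0.31) and 8 rose and 1 fell of 17 in sgBACH1 (median 0.46). *FOXA1*, a factor of gut and pancreas epithelium, rose in both, by 1.60 ± 0.24 in siBACH1 and 1.37 ± 0.12 in sgBACH1 (SE; edgeR adjusted p = 0.00138 and 2.56e-09). The largest changes of this list in sgBACH1 were those of the epithelial factors *GRHL3*, which rose by 2.58 ± 0.64, and *OVOL1*, the 1 that fell, by 2.57 ± 0.75 (SE; edgeR adjusted p = 0.00383 and 0.0137). Both were at low levels. *GRHL3* averaged 2.66 ± 1.22 CPM in sgBACH1 and 0.439 ± 0.149 in sgCont, and *OVOL1* 0.204 ± 0.0331 and 1.26 ± 0.0773 (SD, n = 3 each). *CDX2*, the intestinal factor, rose by 1.83 ± 0.18 in siBACH1 (SE; edgeR adjusted p = 0.000116), where the intestinal keratin *KRT20* was not called. *TFAP2A*, which encodes the factor AP-2 alpha that acts on keratin genes of skin, fell by 0.86 ± 0.21 in siBACH1 (SE; edgeR adjusted p = 0.0162). Some genes are in more than 1 list and count in each, so the lists are not separate. *SOX9* and *ELF3* are epithelial markers and listed factors, *CEACAM6* is an epithelial marker and a classical gene, and *TP63* is a squamous gene and a listed factor.

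The non-keratin genes whose levels ran most like each member were found by the root mean square (RMS) difference in log2 CPM over the 12 libraries, after centring each gene on the mean of each experiment. For *KRT16* the nearest was *FAM83A*, with an RMS difference of 0.28 beside a spread of 1.17 for *KRT16* itself, then *GLIPR1* and *NOG* at 0.43. *KRT23* ran with *TXN*, which encodes thioredoxin, at 0.22 beside its own spread of 0.70, then with *TMEM64* and *KIF3A*. *KRT80* ran with *FHOD3* at 0.25, *KIT* at 0.32 and *PRR5L* at 0.34, beside a spread of 1.24. *FHOD3* and *KIT* did not pass the filter on low counts in the siRNA experiment, so their likeness to *KRT80* rests on the knockout libraries. There their log2 fold changes were -4.19 and -7.31, beside -3.35 for *KRT80*. The log2 CPM were taken with a prior count of 2, which shrinks differences near 0. A small RMS difference is therefore not a like fold change for genes at low counts. *KRT7* ran with *NLRP3*, *TNFRSF12A* and *PITPNM3* at 0.26 to 0.29 beside 0.89. For *KRT8* (*NF2*, *TUFM* and *POFUT1*), *KRT18* (*SERPINH1*, *GCN1* and *MLST8*) and *KRT19* (*MYRF*, *NDST1* and *GALNT2*) the differences were 0.06 to 0.08 beside spreads of 0.25, 0.29 and 0.19. The points share libraries and depth, and these are descriptions of likeness only.

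The letters AACATTA and ACATTAA, searched on the transcribed strand of GENCODE 29 3′ UTRs after an earlier look at these data, were in 57.6% of the genes that fell in siBACH1, 15.7% of those that rose and 27.8% of all 11669 genes with a 3′ UTR tested there. In the knockout comparison they were in 25.4% of the genes that fell and 29.4% of those that rose. None of the 4 keratins that fell in siBACH1 holds either word, but their longest 3′ UTRs have only 161 (*KRT7*), 126 (*KRT19*), 157 (*KRT16*) and 876 (*KRT23*) bases, and the shares above are not matched for length. *KRT80* is the only member that does, once, at position 2068 of a 3′ UTR of 2527 bases, and it was not called in siBACH1. The site is shown because it is the only such match among the members, with the matching word in capitals.
KRT80 3′ UTR site: gctgatcatggAACATTAggaattctcca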

How the data were processed

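The members, the gene lists and the sequence searches were chosen with earlier results of these data known. The authors deposited raw read counts per gene, 1 table per experiment. Per the submitters' processing notes HTSeq 0.9.1 and SAMtools were used with genome hg19, and not given in the sources used here are the aligner, the counting mode and any use of strand. Per the labels' protocols libraries were made with an Ion Total RNA-seq kit, selected for short fragments and sequenced on an Ion Proton, so reads are short, which bears on genes with near-identical copies.

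Samples were grouped by their titles. Of 57820 identifiers 51996 took a symbol from a table of current names and 342 from GENCODE 29, whose GRCh38 coordinates, transcripts and lengths were used and never mixed with hg19 coordinates. The promoter table held 2 members, *KRT8* and *KRT20*, and neither window holds TGANTCA, TGACNNNGC or TATAAA on either strand, which 7.71%, 13.3% and 11.5% of all promoters in it do. The *KRT8* window (chromosome 12, 52926420 to 52926719) lies inside the annotated span of the gene, 52897187 to 52949954. Whether *KRT8* was transcribed from that start in these cells was not tested.

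The test was edgeR 4.0.16 under R 4.3.3 (TMM, filterByExpr with a minimum count of 10, two-sided quasi-likelihood test, Benjamini-Hochberg over all genes tested). Each experiment was fitted alone, and the difference of responses in 1 fit of 12 libraries with 4 group means, which share no control libraries. CPM are TMM-scaled over the 12 libraries, except in the marker sums, which use library totals alone. Every standard error is that of a log2 fold change. The test of *BACH1* used log2 values of CPM plus 1. The steps were tested on simulated data. Alternatives were other scalings, no filter, DESeq2 1.42.0, limma-voom 3.58.1, a replicate block, a joint fit and leaving out each library. All members, *BACH1*, some of up to 4 called genes of largest change per list and comparison, other keratins that passed the filter and the 3 genes most like each member are named, and *KRT5*, *KRT81*, *KRT83* and the *KRT16* pseudogenes were added after their counts were seen. A marker and a sequence are not reported here.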

Additional observations from a re-analysis of the deposited data

Results flagged for a closer look

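The responses to the knockout and to the siRNA differed in 4 members by the test of the difference itself (edgeR, 12 libraries). *KRT80* differed by -2.83 on the log2 scale (SE 0.31), having fallen in sgBACH1 and not been called in siBACH1. *KRT18* differed by -0.95 (SE 0.12) and *KRT8* by -0.83 (SE 0.10), both lower in sgBACH1 than in sgCont in all 3 libraries and higher in siBACH1 than in siCont in all 3 without a call. *KRT23* differed by 2.53 (SE 0.37), having risen in sgBACH1 and fallen in siBACH1. Leaving out 1 library at a time, the difference lay between -3.19 and -2.59 for *KRT80*, -1.02 and -0.85 for *KRT18*, -0.88 and -0.76 for *KRT8*, and 2.31 and 2.74 for *KRT23*. The rise of *KRT23* in the knockout had edgeR adjusted p up to 0.113 in such fits. In *KRT80*, *KRT18* and *KRT8* every sgCont library lay above all other libraries, as in 8.73% of genes. Leaving out 1 library cannot address a whole group, and the part of the sgCont levels in these differences was not tested.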

How the results depend on the processing

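Of 362 fold changes and differences recomputed for single members, 352 kept their direction and their side of the threshold, 3 gained a call, 5 lost one and 2 changed sign uncalled. Without the filter on low counts 7 members were called in the siRNA comparison, 2 up and 5 down, and *KRT8*, *KRT18* and *KRT80* joined at log2 fold changes of 0.18, 0.21 and -0.52. The cause was not tested. Leaving out 1 library, the siRNA comparison called 2002 to 5121 genes, with 2002, 2078 and 2096 without siBACH1 replicate 1, 2 and 3 and 5121 without siCont replicate 2. *KRT23* in the knockout ran from 0.58 to 0.96 over these fits, with adjusted p up to 0.113. *KRT20*, with the fewest counts of the members tested, ran from -2.24 to 1.41 for the difference of responses, the highest without sgCont replicate 2, and was 0.20 by limma-voom, never called. The counts of members called in the knockout and for the difference were within 1.5 times under all alternatives run.

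With the replicate number as a block 3196 genes were called in the siRNA comparison, 3530 in the knockout and 3513 for the difference, with 4, 7 and 4 members, and no member's call changed. The numbers are not shown to pair libraries: deviations of same-numbered libraries correlated at -0.0153 to 0.0571.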
